A study of Mus musculus with 6 samples.

Results

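The plasma cell regulators *Prdm1*, *Irf4* and *Xbp1* and the plasma cell surface gene *Sdc1* were followed from GC B-cells into antibody-secreting cells. They were chosen by symbol as 4 of the 31053 features counted in 6 single cell RNA-seq libraries of mouse splenic cells. In 3 libraries, labelled WT, the cells came from *Cγ1*-Cre control mice, and in 3, labelled *Smc3* +/-, from *Cγ1*-Cre mice heterozygous for *Smc3*, a core subunit of cohesin. All 6 libraries therefore carry *Cγ1*-Cre, which is active in B-cells as they enter the GC reaction and not in the whole animal. The *Smc3* allele was built by targeting exon 4, and the cells were sorted from spleen after immunization with sheep red blood cells. The study's methods describe as many *Smc3* heterozygous mice as there are such libraries, and more wild-type mice than there are WT libraries here. Ages are not given in the sources used here and no source ties a library to a mouse, so p-values measure only the spread between these libraries, which may be technical.

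Plasma cell differentiation replaces the program of the B-cell with that of a secretory cell. *Irf4* encodes a transcription factor that is needed both to set up the GC reaction and, at high levels, to start plasma cell differentiation, where it drives *Prdm1*. *Prdm1* encodes Blimp-1, a zinc finger repressor that shuts off B-cell identity genes such as *Pax5*. *Xbp1* encodes a basic leucine zipper factor whose transcript is spliced by the stress sensor IRE1 in the endoplasmic reticulum and which expands the secretory apparatus. *Sdc1* encodes syndecan-1 (CD138), the surface proteoglycan by which plasma cells are commonly sorted. T-cells and myeloid cells can also use *Irf4*, *Prdm1* and *Xbp1*.

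In GENCODE M21 on GRCm38 *Prdm1* (ENSMUSG00000038151) spans chr10:44437177-44528501 on the minus strand and *Irf4* (ENSMUSG00000021356) spans chr13:30749226-30766976 on the plus strand. *Xbp1* (ENSMUSG00000020484) spans chr11:5520659-5525893 and *Sdc1* (ENSMUSG00000020592) spans chr12:8771323-8793715, both on the plus strand. No other annotated gene overlaps any of the 4. Because members that move together may share promoter letters, the RefSeq promoters (GRCm38.p6) are shown, each from 250 bases before to 50 bases after the start that RefSeq lists, 5′ to 3′. The *Prdm1* start used here lies inside the longer GENCODE gene.
Prdm1, chr10:44458699-44458998, minus strand: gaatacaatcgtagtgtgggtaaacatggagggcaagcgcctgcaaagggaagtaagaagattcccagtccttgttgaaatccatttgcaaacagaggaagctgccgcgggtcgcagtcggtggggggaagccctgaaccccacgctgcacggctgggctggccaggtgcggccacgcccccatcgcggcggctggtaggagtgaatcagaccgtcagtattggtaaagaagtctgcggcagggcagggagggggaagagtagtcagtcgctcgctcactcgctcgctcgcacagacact
Irf4, chr13:30748983-30749282, plus strand: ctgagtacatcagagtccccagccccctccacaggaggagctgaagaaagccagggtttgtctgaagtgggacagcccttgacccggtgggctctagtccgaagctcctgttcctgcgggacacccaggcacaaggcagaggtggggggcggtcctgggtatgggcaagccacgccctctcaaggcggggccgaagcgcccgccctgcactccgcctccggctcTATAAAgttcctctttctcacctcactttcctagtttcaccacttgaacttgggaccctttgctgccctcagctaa
Xbp1, chr11:5520391-5520690, plus strand: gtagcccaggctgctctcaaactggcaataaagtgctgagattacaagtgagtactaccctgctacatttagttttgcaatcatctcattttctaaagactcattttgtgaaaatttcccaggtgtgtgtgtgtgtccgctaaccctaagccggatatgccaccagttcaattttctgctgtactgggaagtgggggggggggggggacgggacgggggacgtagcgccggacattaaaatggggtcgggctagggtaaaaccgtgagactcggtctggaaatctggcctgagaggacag
Sdc1, chr12:8771146-8771445, plus strand: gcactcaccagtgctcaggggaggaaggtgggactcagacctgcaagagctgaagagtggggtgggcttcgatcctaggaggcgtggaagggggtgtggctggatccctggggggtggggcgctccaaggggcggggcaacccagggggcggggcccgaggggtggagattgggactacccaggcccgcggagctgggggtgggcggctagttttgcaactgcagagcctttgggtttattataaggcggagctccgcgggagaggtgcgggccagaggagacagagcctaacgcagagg
Capitals mark the only motif match, the TATA element TATAAA in *Irf4*, whose first base is at position -26 from the start. The search covered both strands for TATAAA, for GACGTGG (a core bound by XBP1), and for the overlapping patterns GAAANNGAA (an interferon response core) and AGNGAAAG (a core bound by Blimp-1). These were present in 13.6%, 2.42%, 8.56% and 8.63% of 32851 mouse promoters of the same length. No such match was shared between the members, and the GC content of the windows ran from 51% in *Xbp1* to 66.3% in *Sdc1*.

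The libraries held 5223325 to 35354257 UMIs (unique molecular identifiers, 1 per captured transcript), and 20809 cells were kept. Pairs of libraries shared 4 to 36 cell barcodes. Replicate 2 labelled *Smc3* +/- stood apart from the other 5. Immunoglobulin genes took 53.1% of the UMIs of its kept cells against 2.43% to 3.93% elsewhere, and it held most cells rich in immunoglobulin. Many results that rest on it are given with and without it, and others with its number of cells or UMIs. Its T cell-like cells, which should lack immunoglobulin transcripts, had a median of 1.28% immunoglobulin UMIs, against 0.0750% to 0.146% in the T cell-like cells of the other libraries. *Smc3* itself was at 168, 175 and 163 CPM in WT and at 161, 125 and 182 CPM in *Smc3* +/- GC B-like cells (edgeR log2 difference -0.08, 95% limits -0.43 and 0.26). These are 3′ counts, in which a transcript without exon 4, where one is made, could still be counted, so they are a limited check of the labels.

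Cells were placed on a scale by the share of their UMIs that came from immunoglobulin heavy and light chain genes, which the members do not enter. The lowest step comprised cells of the GC B-like clusters with under 10% immunoglobulin UMIs, 12287 in all and 364 to 3353 per library. The intermediate step held 321 B-lineage cells with 10% to under 40%, and the highest step held 1676 with 40% or more. Without *Smc3* +/- replicate 2 these numbers were 11923, 146 and 93. Each library had 12 to 175 intermediate and 13 to 1583 highest cells. Another set, the early PB-like cells, lay under 10% immunoglobulin but in the plasmablast-like cluster, with 8, 14 and 24 cells in WT and 22, 4 and 16 in *Smc3* +/- libraries. Clusters were drawn without the members, the gene lists given further on or immunoglobulin genes. Other plasma cell genes remained, so levels in PB-like cells describe those cells. Levels are CPM, here the UMIs of a gene per 1000000 non-immunoglobulin UMIs summed over the cells of a library and step, and they compare a gene with itself and not with another gene.

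All 4 members rose between the lowest and the intermediate step in every library. *Prdm1* stood at 1.37, 1.23 and 0.743 CPM in WT and 1.06, 1.40 and 1.18 CPM in *Smc3* +/- lowest-step cells, from 3 to 31 UMIs per library (mean 1.16 ± 0.24, SD, n = 6). In the intermediate step it stood at 41.6, 63.3 and 54.3 CPM in WT and 62.1, 72.4 and 54.6 CPM in *Smc3* +/-. Every intermediate value of *Prdm1* thus lay above every lowest value, and the libraries of both genotypes overlapped in both. *Irf4* was at 4.94, 4.49 and 5.20 CPM in WT and 4.76, 20.5 and 4.14 CPM in *Smc3* +/- lowest-step cells, and at 41.6, 79.1 and 76.0 CPM and 62.1, 195 and 76.5 CPM in the intermediate step. The high *Irf4* value of *Smc3* +/- replicate 2 in the lowest step came from 44 UMIs in 364 cells, and without that library the lowest-step mean was 4.71 ± 0.41 (SD, n = 5) in place of 7.34 ± 6.47 (SD, n = 6).

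*Xbp1* was already well covered in GC B-like cells, with 226 to 3310 UMIs per library in the lowest step. Its level there was 129, 113 and 123 CPM in WT and 147, 105 and 117 CPM in *Smc3* +/-, and it reached 2020, 1606 and 1874 CPM and 1955, 1580 and 1706 CPM in the intermediate step. *Sdc1* had 0.549, 0.517 and 0.668 CPM in WT and 0.706, 1.87 and 0.446 CPM in *Smc3* +/- lowest-step cells, from 2 to 18 UMIs, and 158, 121 and 166 CPM and 253, 168 and 129 CPM in the intermediate step. In both genes the steps did not overlap, and the 1.87 CPM of *Sdc1* in *Smc3* +/- replicate 2 rested on 4 UMIs.

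**Figure D1:**
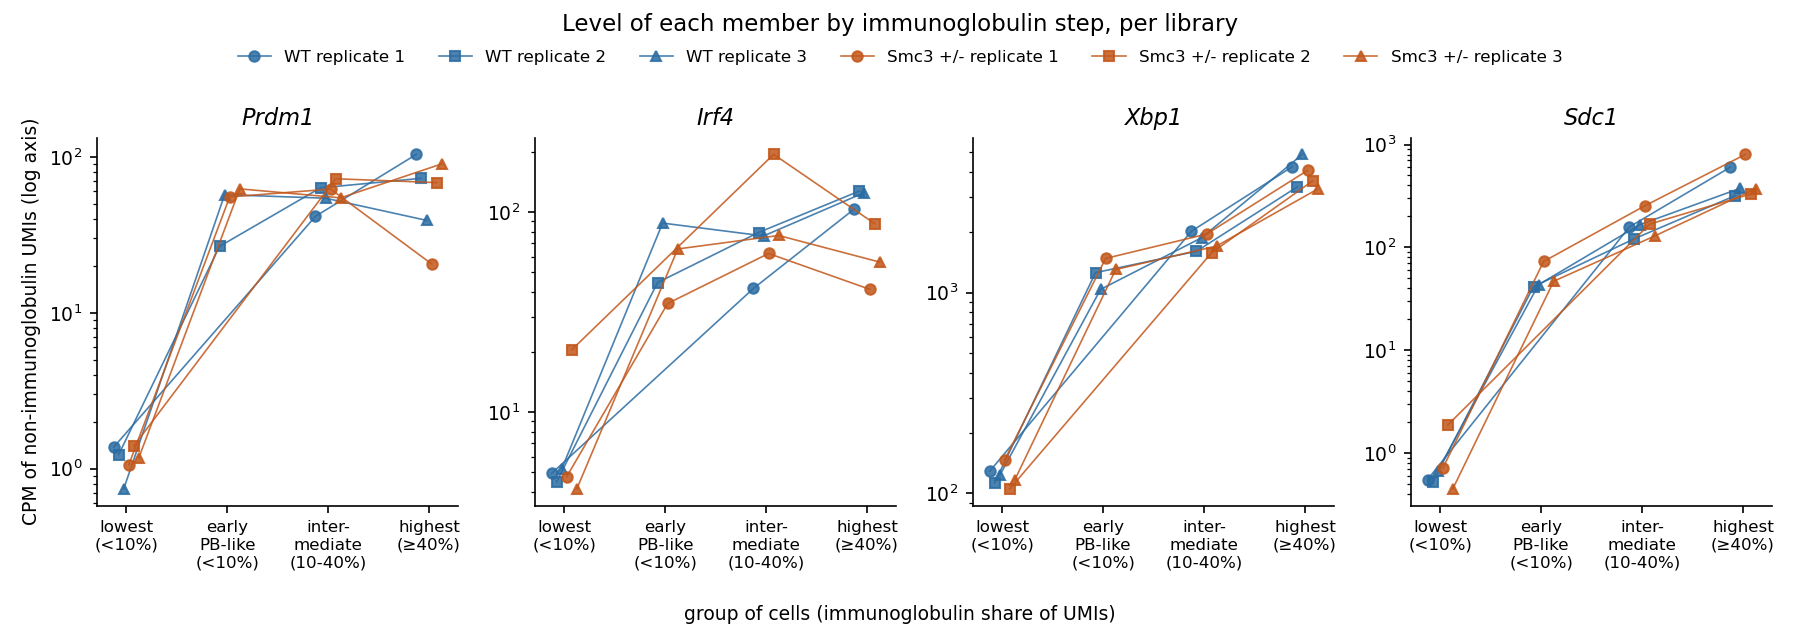
Levels of *Prdm1*, *Irf4*, *Xbp1* and *Sdc1* in CPM of non-immunoglobulin UMIs on a log axis, with 1 line per library over the lowest step, the early PB-like cells, the intermediate and the highest step. Libraries with fewer than 10 early PB-like cells skip that point. *Prdm1* and *Irf4* stand at means of 58.0 and 88.3 CPM in the intermediate and 65.8 and 90.3 CPM in the highest step, whereas *Xbp1* and *Sdc1* go from 1790 and 166 to 3901 and 467 CPM.

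In edgeR's quasi-likelihood test with the library as a block, the log2 rise from the lowest to the intermediate step was 5.94 (SE 0.24, adjusted p 6.43e-17) for *Prdm1* and 4.10 (SE 0.24, adjusted p 1.01e-13) for *Irf4*. It was 4.11 (SE 0.12, adjusted p 1.10e-19) for *Xbp1* and 8.18 (SE 0.21, adjusted p 1.15e-20) for *Sdc1*. Thus 4 of 4 members were called higher, where 27.2% of the 5582 genes tested were called higher and 26% lower. With the size factors of DESeq2 the rises were 5.75, 3.91, 3.91 and 7.996, all called, while the median over all genes moved from -0.04 to -0.23 and the genes called became 1232 higher and 2105 lower. Between the lowest and the highest step, where 28.2% of genes were called higher and 31.7% lower, the rises were 6.45 (SE 0.30) for *Prdm1*, 4.17 (SE 0.31) for *Irf4*, 5.60 (SE 0.13) for *Xbp1* and 9.93 (SE 0.21) for *Sdc1*, all with adjusted p of 1.06e-11 or lower. In an alternative, all B-lineage cells under 10% immunoglobulin UMIs formed the lowest step. The GC B-like clusters then did not enter the choice, but the early PB-like cells were part of that step. There the rises to the intermediate step were 5.02 for *Prdm1*, 3.77 for *Irf4*, 3.91 for *Xbp1* and 6.96 for *Sdc1*, all called.

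Over the upper steps some members were called and others not, although the differences between them did not pass their own test, given further on. From the intermediate to the highest step *Xbp1* rose by a further 1.49 on the log2 scale (SE 0.11, edgeR adjusted p 2.36e-10) and *Sdc1* by 1.75 (SE 0.16, adjusted p 6.44e-09), against a background of 11.8% of genes called higher and 17.8% lower. *Prdm1* and *Irf4* were not called, at 0.51 (SE 0.25, adjusted p 0.128) and 0.06 (SE 0.29, adjusted p 0.915). In the highest step *Xbp1* was at 4235, 3361 and 4879 CPM in WT and 4057, 3594 and 3277 CPM in *Smc3* +/-, above the intermediate level of the same library in 6 of 6. *Sdc1* was at 602, 319 and 376 CPM in WT and 803, 330 and 372 CPM in *Smc3* +/-, likewise higher in 6 of 6. *Prdm1* was at 104, 72.9 and 39.2 CPM in WT and 20.6, 68.4 and 90.1 CPM in *Smc3* +/-, higher than in the intermediate step in 3 of 6 libraries. That spread of *Prdm1* is large beside its depth, since 5 of the 6 libraries gave only 1 to 8 UMIs. *Irf4* was at 104, 128 and 125 CPM in WT and 41.2, 87.7 and 56.3 CPM in *Smc3* +/-, from 2 to 16 UMIs outside *Smc3* +/- replicate 2, which gave 650. Without that library the change of *Irf4* was 0.76 (adjusted p 0.0820). Without the library as a block the change of *Prdm1* became 0.69 and passed (adjusted p 0.0315).

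Onset was described in the early PB-like cells, whose median immunoglobulin share was 5.55% to 8.97%. In these cells *Prdm1* was at 62.3, 26.7 and 57.2 CPM in WT and 55.3, 134 and 62.4 CPM in *Smc3* +/-, and *Irf4* at 89.0, 44.5 and 88.2 CPM and 35.0, 179 and 65.5 CPM. Every one of these values lay above the lowest-step value of the same library, in cells where immunoglobulin transcripts were still under 10%. *Xbp1* was at 1531, 1257 and 1038 CPM in WT and 1480, 784 and 1303 CPM in *Smc3* +/-, and *Sdc1* at 53.4, 41.5 and 43.3 CPM and 72.8, 22.4 and 46.8 CPM, below the intermediate level of the same library in 6 of 6 for both genes. Of these libraries WT replicate 1 and *Smc3* +/- replicate 2 had only 8 and 4 early PB-like cells, under the minimum of 10 for a sum. These cells were picked by a cluster that other plasma cell genes drew, so higher plasma cell regulators in them follow in part from the choice, and their levels are a description with no test. A fit was added after the data had been seen. Its early PB-like sums came from the 4 libraries with at least 10 such cells (76 cells), and its other steps from all 6 libraries. In it the log2 differences of early PB-like over lowest-step cells were 5.75 for *Prdm1*, 3.73 for *Irf4*, 3.56 for *Xbp1* and 6.40 for *Sdc1*. Those of intermediate over early PB-like cells were 0.17 (SE 0.25), 0.38 (SE 0.29), 0.55 (SE 0.12) and 1.76 (SE 0.19) in the same order. The early cells were deep, with medians of 10458 to 26154 non-immunoglobulin UMIs against 4234 to 7020 in the lowest step. The part of undetected doublets in these cells was not tested.

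Between early PB-like cells and the highest step the log2 differences were 0.70 (SE 0.30) for *Prdm1*, 0.39 (SE 0.35) for *Irf4*, 2.06 (SE 0.13) for *Xbp1* and 3.53 (SE 0.20) for *Sdc1*, also as a description. The value of *Irf4* was 1.11 without *Smc3* +/- replicate 2, and that of *Prdm1* was 0.44 to 0.98 when 1 library was left out.

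The sizes of the rises were then set against each other within each library, as log2 ratios with 0.5 UMI added, in a comparison also added after the data had been seen. From the lowest to the intermediate step *Sdc1* rose more than *Prdm1* by 2.14 ± 0.757 (SD, n = 6) in 6 of 6 libraries, and *Prdm1* more than *Irf4* by 1.88 ± 0.406 and more than *Xbp1* by 1.74 ± 0.468 in 6 of 6. Each of these had an exact two-sided sign-flip p of 0.0312, the smallest that 6 libraries allow, and 0.0375 after Benjamini-Hochberg adjustment over the 6 pairs of members. *Irf4* and *Xbp1* did not differ beyond the spread of the libraries (-0.14 ± 0.492, exact p 0.5, higher for *Irf4* in 3 of 6). By the highest step *Irf4* had risen less than *Xbp1* in 6 of 6 libraries, by -1.09 ± 1.04 (SD, n = 6, exact adjusted p 0.0312). The mean was -0.71 without *Smc3* +/- replicate 2, and the difference in WT replicate 2 was only -0.02. From the intermediate to the highest step no pair passed (lowest exact adjusted p 0.0938), although both *Prdm1* and *Irf4* changed less than *Sdc1* in 6 of 6 libraries, by -1.31 ± 0.773 and -1.28 ± 0.784. Differences against the lowest step rest on its few UMIs of *Prdm1* (3 to 31 per library) and *Sdc1* (2 to 18). The part of free RNA in those UMIs was not tested, so these differences describe ratios of counts and are no bounds on the rises.

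The low levels in GC B-like cells were also described by shares of cells with at least 1 UMI, after thinning each cell to 1000 non-immunoglobulin UMIs. T cell-like cells, which should lack *Sdc1* but can use *Prdm1*, *Irf4* and *Xbp1*, are given beside them, with medians of 1206 to 1975 non-immunoglobulin UMIs before thinning. *Prdm1* was detected in a mean of 0.0772% of lowest-step cells and 0.249% of T cell-like cells, from 10 of 12248 and 1 of 474 cells. *Sdc1* was detected in a mean of 0.102% of lowest-step cells, or 0.0667% without *Smc3* +/- replicate 2. It was detected in 0 of 474 T cell-like cells, which allows a share of up to 0.633%. For *Sdc1* a level above free RNA was therefore not detectable at this depth. *Irf4* was detected in 0.742% of lowest-step cells, or 0.338% without *Smc3* +/- replicate 2, against 0.669% of T cell-like cells, the latter from 3 cells. For *Prdm1* and *Irf4* the T cell-like share is no free RNA level, and whether their lowest-step UMIs stand above free RNA was not tested. *Xbp1* was detected in 10.6% against 6.51%. In the intermediate step the thinned shares were 5.38% for *Prdm1*, 9.75% for *Irf4*, 73.7% for *Xbp1* and 19.3% for *Sdc1*, and in the highest step 8.15%, 10.3%, 90.6% and 31.9%. Without thinning the lowest-step shares were 0.686%, 3.92%, 45.8% and 0.505%, the intermediate shares 39.5%, 41.6%, 94.3% and 59.98%, and the highest 22.1%, 32.5%, 98.7% and 73.8%. The means over libraries of the unthinned shares of *Prdm1* and *Irf4* were lower in the highest than in the intermediate step, and those of the thinned shares were not. By library the thinned share was lower in the highest step in 3 of 6 for *Irf4* and 2 of 6 for *Prdm1*. Both counts include *Smc3* +/- replicate 2, which held most of these cells, at 9.23% (95% exact limits 7.85% and 10.8%) against 19.4% (13.8% and 26.1%) for *Irf4* and 6.14% against 8% for *Prdm1*. Medians of non-immunoglobulin UMIs per cell were 2794 to 5316 in the highest and 5544 to 12907 in the intermediate step. Thinning left out 39 of 12287 lowest, 4 of 321 intermediate and 2 of 1676 highest cells.

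**Figure D2:**
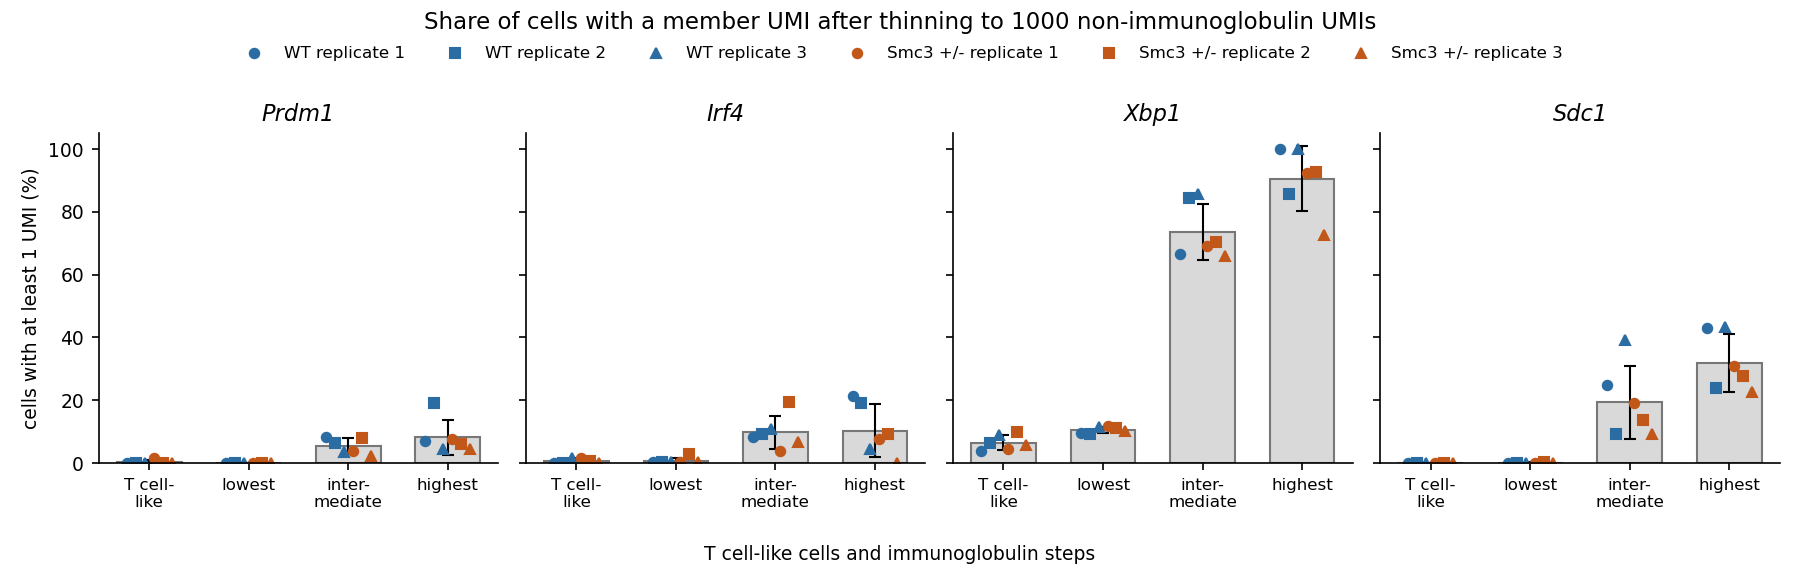
Percent of cells with at least 1 UMI of each member after thinning to 1000 non-immunoglobulin UMIs, in T cell-like cells and in the lowest, intermediate and highest step, with 1 point per library, bars at the mean and error bars of 1 SD. From the lowest to the highest step *Xbp1* goes from 10.6% to 90.6%, *Sdc1* from 0.102% to 31.9%, *Irf4* from 0.742% to 10.3% and *Prdm1* from 0.0772% to 8.15%.

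A few GC B-like cells carried several UMIs of a member. The highest number in a single lowest-step cell was 1 to 5 for *Prdm1*, 2 to 6 for *Irf4*, 6 to 58 for *Xbp1* and 1 to 4 for *Sdc1*, by library. Cells with UMIs of at least 3 of the 4 members made up 0% to 0.232% of the lowest step, 33.3% to 59.4% of the intermediate step and 15.4% to 52.2% of the highest, without thinning. All 4 members were found together in 8% to 20.7% of intermediate and 0% to 9.52% of highest cells.

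Within the lowest step the members were compared across GC B-like classes, each called by its leading genes. In CC-like cells, led by *Nfkbid*, *Il4i1* and *Cd83*, *Irf4* was at 19.9, 21.4 and 16.1 CPM in WT and 21.2, 28.5 and 18.9 CPM in *Smc3* +/-, from 7 to 44 UMIs. In CB-like cells, led by histone and mitotic genes, it was at 2.84, 2.62 and 3.87 CPM in WT and 3.42, 13.3 and 2.67 CPM in *Smc3* +/-. *Irf4* was therefore higher in CC-like than in CB-like cells in 6 of 6 libraries. It was above S-phase GC B-like cells (0.439 to 35.4 CPM) and recycling-like cells (4.14 to 12.7 CPM) as well in 5 of 6 libraries, the exception being *Smc3* +/- replicate 2, where 16 UMIs in 91 S-phase cells gave the 35.4 CPM. After thinning, a mean of 2.62% of CC-like cells had an *Irf4* UMI, or 1.64% without *Smc3* +/- replicate 2, which had 7.53%. *Xbp1* ran from 88.0 to 131 CPM in CC-like, 94.4 to 130 in CB-like, 109 to 143 in S-phase and 113 to 190 CPM in recycling-like cells, ranges that overlap. *Prdm1* and *Sdc1* ranged from 0 to 4.43 CPM over the 4 classes, and naive or memory B-like cells had 0 to 3.81 and 0 to 7.04 CPM of them. These class levels are a description and were not tested.

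Over the named B-lineage classes the members had different orders. *Irf4* was at 9.62 to 16.2 CPM in naive or memory B-like cells, between most CB-like and most CC-like values. It was at 43.8 to 168 CPM in PB-like and at 39.9 to 156 CPM in PC-like cells, ranges that overlap. *Xbp1* was lowest in naive or memory B-like cells, at 42.0 to 81.0 CPM, below each of the 4 GC B-like classes, and stood at 1454 to 2524 CPM in PB-like and 3636 to 4867 CPM in PC-like cells, ranges that do not overlap. *Sdc1* followed the same order in these last classes, at 88.8 to 215 and 312 to 1358 CPM. *Prdm1* was at 46.1 to 78.9 CPM in PB-like and 37.7 to 135 CPM in PC-like cells, ranges that overlap. Since other plasma cell genes drew the PB-like and PC-like clusters, no test was made between them. The B-lineage clusters without a name, 3325 cells led by haemoglobin genes and 53 led by interferon response genes, were left out of the lowest step. Their mean log2 levels of GC B-cell markers over the median cluster were 1.214 and 1.215, against 0.578 to 1.2 in the GC B-like clusters. The lowest step thus leaves out cells with GC markers. Their *Irf4* was at 0 to 4.81 CPM and their *Xbp1* at 107 to 159 CPM in 5 libraries, and in the 107 such cells of *Smc3* +/- replicate 2 at 27.3 and 551 CPM.

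**Figure D3:**
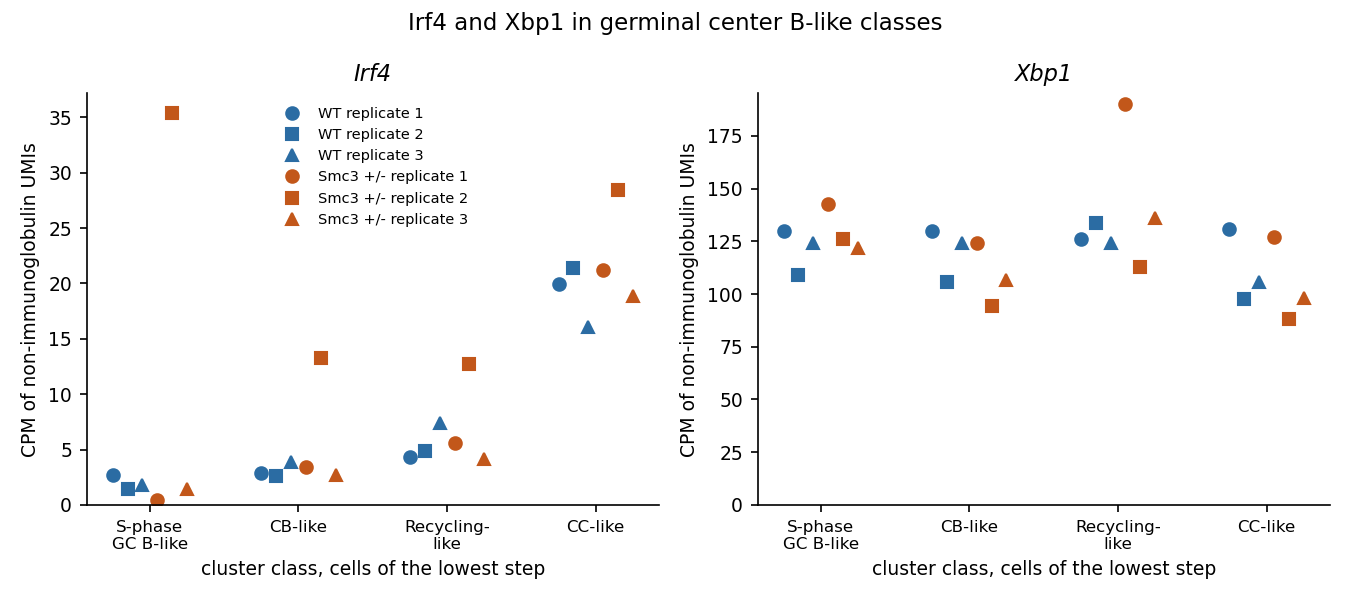
Levels of *Irf4* and *Xbp1* in CPM in S-phase, CB-like, recycling-like and CC-like cells of the lowest step, with 1 point per library. *Irf4* lies at 16.1 to 28.5 CPM in CC-like cells, above CB-like cells of the same library in 6 of 6, and the S-phase point at 35.4 CPM is *Smc3* +/- replicate 2, while the *Xbp1* classes overlap.

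Co-expression was examined as detection in the same cell. In unthinned lowest-step cells *Prdm1* and *Irf4* occurred together in 17 of 12287 cells, where the product of their shares, summed over libraries, gave 2.53, and the count was above that product in 4 of 6 libraries. *Prdm1* and *Xbp1* occurred together in 53 cells against 37.9, above the product in 6 of 6, and *Irf4* and *Xbp1* in 212 against 185, above it in 5 of 6. *Sdc1* occurred together with *Prdm1*, *Irf4* and *Xbp1* in 2, 6 and 37 cells against 0.337, 1.81 and 24.8, above the product in 1, 3 and 5 of 6 libraries. Cells with a *Prdm1* UMI were deeper, with medians of 6890 to 11452 non-immunoglobulin UMIs by library against 4222 to 7013 in cells without, and the part of depth in these counts was not tested. After thinning, *Prdm1* met *Irf4* in 0 of 12248 cells, which allows up to 0.0245%, but the product of the shares gave only 0.0344 cells, so this pair could not be read at equal depth. In the same thinned cells *Prdm1* met *Xbp1* in 1 cell against 1.06 from the product, and *Irf4* met *Xbp1* in 8 against 5.17, so the unthinned excess of *Prdm1* with *Xbp1* was not seen at equal depth, where counts are few. The planned log2 odds ratios of the thinned cells (5.78 for *Prdm1* and *Irf4*, exact sign-flip adjusted p 0.0469) are set there by the 0.5 added to each count and are not read as co-expression.

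In the intermediate and highest steps together *Xbp1* was detected in 1971 of 1997 cells without thinning, so counts of its pairs must lie near the product of the shares and do not tell co-expression. Of the 1997 cells 194 had both *Prdm1* and *Irf4* against 184, 534 both *Prdm1* and *Xbp1* against 533, and 372 both *Prdm1* and *Sdc1* against 377. *Irf4* met *Xbp1* in 667 cells against 667 and *Sdc1* in 467 against 474, and *Xbp1* met *Sdc1* in 1393 against 1379. In 4 of 6 libraries 0 cells had *Sdc1* without *Xbp1*, so the odds ratio of that pair rests on the 0.5 added and is not read. For *Prdm1* and *Irf4* the mean log2 odds ratio over libraries, unthinned, was 0.39 ± 0.306 (SD, n = 6), above 0 in 5 of 6 (exact sign-flip p 0.0625, adjusted p 0.188). *Smc3* +/- replicate 2 held 1758 of the 1997 cells, so the pooled counts mostly describe that library. It held 158 of the 194 cells with *Prdm1* and *Irf4*, 313 of the 372 with *Prdm1* and *Sdc1* and 407 of the 467 with *Irf4* and *Sdc1*. By library, counts lay above the product in 5 of 6 for *Prdm1* and *Irf4*, 4 of 6 for *Prdm1* and *Sdc1* and 1 of 6 for *Irf4* and *Sdc1*. In thinned cells no pair passed the exact sign-flip test over 6 libraries (adjusted p 0.375 to 1), the largest mean log2 odds ratio being 0.94 ± 0.925 (SD) for *Xbp1* and *Sdc1*, above 0 in 5 of 6 libraries.

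**Figure D4:**
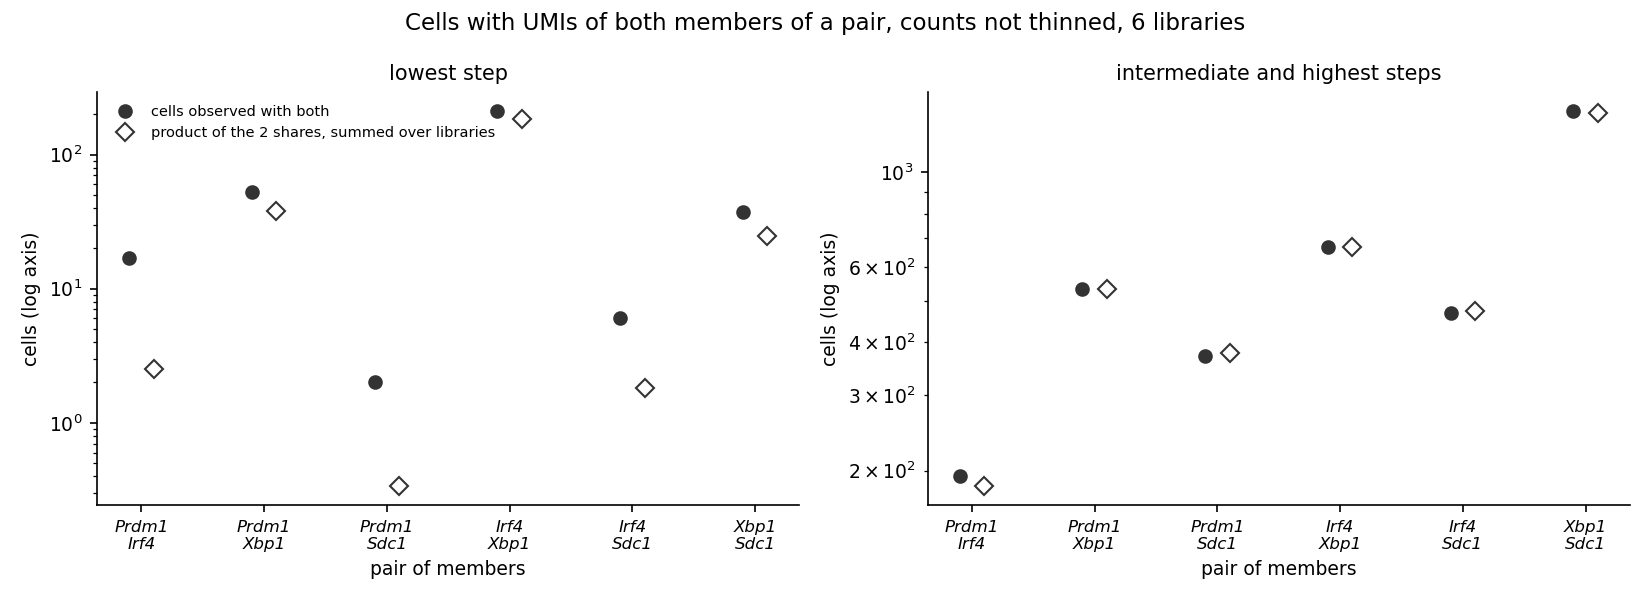
Cells with UMIs of both members of each pair (circles) beside the number given by the product of their shares within each library (open diamonds). Both are summed over 6 libraries and not thinned, on a log axis, for the lowest step and for the intermediate and highest steps together. In the lowest step *Prdm1* and *Irf4* stand at 17 against 2.53. In the upper steps, mostly cells of *Smc3* +/- replicate 2, *Xbp1* was detected in 1971 of 1997 cells, so circles of its pairs can only lie near their diamonds.

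Immunoglobulin share was also compared between lowest-step cells with and without a UMI of a member. After thinning, cells with *Xbp1* had a median immunoglobulin share 0.08 percentage points higher in 6 of 6 libraries (exact sign-flip p 0.0312, adjusted p 0.0625). Without thinning the sign turned, to -0.06 percentage points in 6 of 6 (exact p 0.0312, adjusted p 0.125). Unthinned differences were 0.13 for *Prdm1*, -0.06 for *Irf4* and -0.35 for *Sdc1*, and no member passed.

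Genotypes were compared within each step. No gene was called in the lowest, intermediate or highest step by edgeR (0%, 0% and 0% of 10858, 3981 and 1125 genes), where 180, 247 and 34 genes had an unadjusted p under 0.05, whereas DESeq2 called 2, 3 and 0 genes. In the lowest step the log2 difference, *Smc3* +/- minus WT, was 0.14 for *Prdm1* (95% limits -0.71 and 0.98), 0.79 for *Irf4* (-0.70 and 2.27), 0.04 for *Xbp1* (-0.23 and 0.32) and 0.22 for *Sdc1*. In the intermediate step it was 0.27 for *Prdm1* (-0.39 and 0.92), 0.85 for *Irf4* (-0.14 and 1.85), -0.02 for *Xbp1* (-0.48 and 0.43) and 0.32 for *Sdc1* (-0.24 and 0.88). In the highest step *Prdm1* did not pass the low-count filter, and the others were at -0.53 for *Irf4* (-1.33 and 0.26), -0.22 for *Xbp1* (-0.88 and 0.44) and 0.13 for *Sdc1* (-0.74 and 1.0). These limits leave room for differences of either sign in each of these members. The *Irf4* differences in the lowest and intermediate steps rested on *Smc3* +/- replicate 2, without which they were -0.18 and -0.04, and in the highest step the difference went from -0.53 to -1.31 without it. With the replicate number as a block, which the numbers bear out in the intermediate step only, *Irf4* there was at 0.80 (edgeR p 0.0196, adjusted p 0.425) and 10 genes were called.

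*Irf4* was also the member whose change over the upper steps differed most between the genotypes. Its within-library log2 ratio of the highest to the intermediate step was 1.32, 0.72 and 0.74 in WT and -0.32, -1.15 and -0.32 in *Smc3* +/-, so that the groups did not overlap. The interaction of genotype and step in edgeR, added after the data had been seen, was -1.69 (SE 0.43, 95% limits -2.57 and -0.82), with an adjusted p of 0.108 that did not pass, where 0.0997% of 6019 genes were called lower and 0% higher. Without *Smc3* +/- replicate 2 it was -1.38 (adjusted p 0.771). Against the lowest step the interaction of *Irf4* was -1.86 (SE 0.42, adjusted p 0.0904, with 0.0332% of genes called lower), and it was -1.25 (adjusted p 0.883) without *Smc3* +/- replicate 2. With 1 of the other libraries left out it ran from -2.16 to -1.74, with adjusted p of 0.00378 without *Smc3* +/- replicate 3, the only one that passed, and of 0.0574 to 0.838 without the others. The highest-step values behind it were 5, 14 and 16 UMIs in WT and 2, 650 and 5 in *Smc3* +/-. For *Prdm1* the same ratios were 1.32, 0.26 and -0.37 in WT and -1.06, -0.09 and 0.78 in *Smc3* +/-, and the interactions of *Prdm1*, *Xbp1* and *Sdc1* were -0.02, -0.09 and -0.08.

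**Figure D5:**
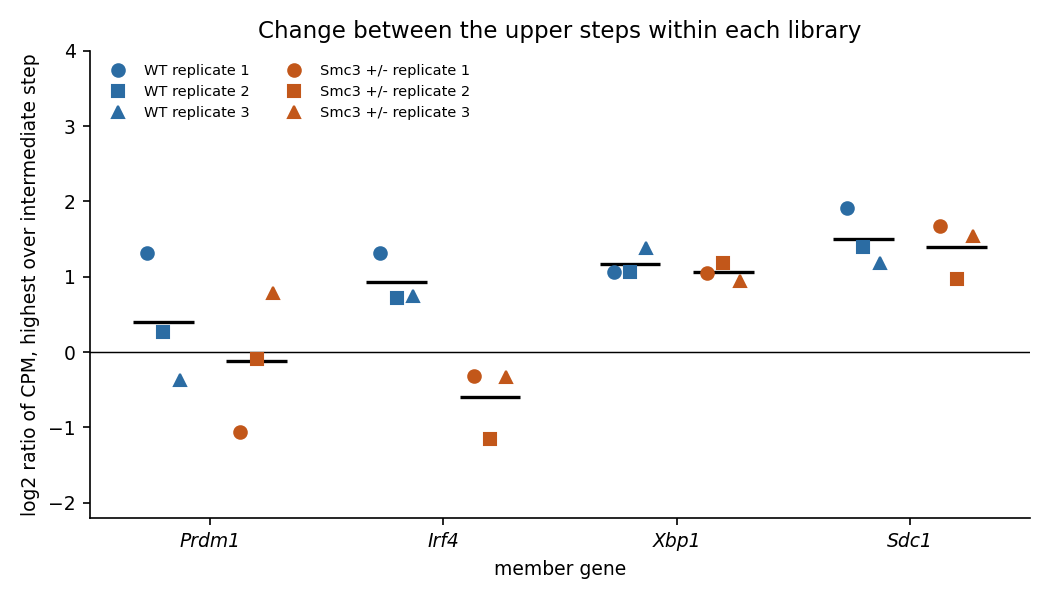
Log2 ratio of the highest to the intermediate step for each member, with 1 point per library and bars at the means of the WT and *Smc3* +/- groups. *Irf4* lies at 0.72 to 1.32 in WT and at -1.15 to -0.32 in *Smc3* +/-, the other members overlap, and the *Irf4* interaction did not pass (adjusted p 0.108).

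The genes around the members in the pathway were described from lists of genes, for the highest against the lowest step, where 28.2% of all genes were called higher and 31.7% lower. Of the signals upstream of *Irf4* and *Prdm1*, 7 of 9 genes were tested, of which 0 rose and 4 fell (median log2 difference -1.22, against -0.12 over all genes). They were *Rel*, an NF-κB subunit (-3.81), *Cd40*, the receptor of T-cell help (-3.81), *Il21r* (-3.54) and *Batf* (-1.22). By the intermediate step 6 of the 7 had fallen (median -1.03, with 26% of all genes called lower), and from there 2 rose and 1 fell (11.8% and 17.8% of all genes). The genes of the B-cell program fell in 20 of 20 (median -3.27), among them *Cd22* (-5.23), *Id3* (-5.13) and *Pax5* (-4.97). In the intermediate step 19 of these 20 had already fallen (median -2.70, with 26% of all genes called lower), and 9 of the 20 fell from there to the highest (17.8% of all genes).

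Of the unfolded protein response and secretory genes, among them targets of XBP1, 30 of 31 were tested and 30 rose (median 3.42). The largest rises were those of the folding enzyme *Pdia4* (6.43), *Edem2*, which acts in the degradation of misfolded proteins (5.66), the chaperone *Hsp90b1* (5.59) and the export coat gene *Sec24d* (5.56). By the intermediate step 28 had risen (median 3.41, with 27.2% of all genes called higher). From there 11 rose and 3 fell (median 0.41, with 11.8% of all genes called higher and 17.8% lower), where *Xbp1* itself rose by 1.49. Of 18 plasma cell partners 15 were tested and 13 rose (median 4.75), with *Tnfrsf17*, which encodes BCMA, at 11.13, *Fkbp11* at 10.17, *Cd28* at 9.89 and *Ly6c2* at 9.85. By the intermediate step 12 had risen and 1 had fallen (median 3.52, with 27.2% of all genes called higher and 26% lower), and from the intermediate to the highest step 12 rose (median 1.09, with 11.8% of all genes called higher). None of these listed genes took part in the clustering, but some were markers by which clusters were named. The steps were drawn from immunoglobulin share with the help of those names, so these counts are not independent of how the cells were chosen.

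Of 6 tested IRF genes other than *Irf4*, 3 rose and 2 fell (median 0.21), where 28.2% and 31.7% of all genes did and 6 genes are too few to tell the family apart, with *Irf8*, a GC B-cell factor, at -2.46, *Irf5* at -1.60, *Irf7* at 1.38 and *Irf9* at 1.27. *Sdc4* was the syndecan other than *Sdc1* that passed the low-count filter, and it rose by 4.16 (SE 0.40). *Prdm2* was the other PRDM gene tested, at 0.80 (SE 0.34, edgeR adjusted p 0.0439).

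Genes with the pattern most like each member were sought by Pearson r of log2 CPM over 23 sums of a library and a fine immunoglobulin step, with library means removed, among 5406 genes. Likeness is a description across sums that share libraries and depth. For *Prdm1* these were *Gm5547* (0.984), *Dnajc3* (0.981), *Spcs3* (0.980), *Mgat2* (0.979) and *Creb3l2* (0.977), and for *Irf4* *Glipr1* (0.974), *Gm5547* (0.970), *Anxa5* (0.967), *Ckap4* (0.967) and *Cmah* (0.966). For *Xbp1* they were *Edem2* (0.994), *Fkbp2* (0.993), *Selenok* (0.990), *Sec11c* (0.990) and *Edem1* (0.988), and for *Sdc1* *Sec11c* (0.994), *Cd28* (0.991), *Spcs2* (0.990), *Krtcap2* (0.989) and *Epcam* (0.988). The members correlated with each other at 0.935 to 0.987 over the same sums. *Edem1*, *Edem2*, *Dnajc3*, *Selenok*, *Sec11c*, *Spcs2* and *Spcs3* act in protein folding, degradation or signal peptide cleavage in the endoplasmic reticulum.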

How the data were processed

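Single cell 3′ RNA-seq counts of 6 libraries were used. The authors deposited whole-number UMI counts per feature and cell barcode, not normalized, made with Cell Ranger, and the submitters' processing notes also name R 4.0.2, Seurat 4.0.0 and the build mm10. Groups and replicate numbers were taken from the library titles. Additional wild-type libraries that the study integrated were not analysed here.

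Barcodes with at least 500 genes and at most 10% mitochondrial UMIs were kept. As doublets, the barcodes with the highest Scrublet scores (scanpy 1.11.5) were removed, at 0.8% per 1000 barcodes, which took 10 to 223 barcodes per library and left 1011 to 4963 cells. Cells were clustered in Seurat 5.3.0 (reciprocal PCA integration, 30 components, 20 neighbours, resolution 0.5) on 1843 of 2000 variable genes, without the members and immunoglobulin genes. Names ending in "-like" rest on marker lists, and the scoring rule behind them was settled once the clusters were known, so names rebuilt here can differ from those of the study. The 392 immunoglobulin genes were left out of counts and library sizes.

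UMIs were summed per library and step where at least 10 cells were present. The sums were tested with edgeR 4.0.16 under R 4.3.3 (TMM, filterByExpr, quasi-likelihood test, Benjamini-Hochberg adjustment over all genes tested, 0.05), with the library as a block between steps and no covariate between genotypes. Co-detection, immunoglobulin shares and differences in rise were tested with exact two-sided sign-flip tests over libraries (Python 3.11.15, scipy 1.17.1). Limits are 95% limits, and the upper limit behind a count of 0 is 3 counts of the total and covers counting error only. The fitting scripts were tested on simulated data. DESeq2 1.42.0 served as an alternative, beside its size factors (RLE), no filter, step limits of 20% and 50%, limits raised by the T cell-like immunoglobulin share, all B-lineage cells as the lowest step, immunoglobulin genes kept, looser cell filters (200 genes, 20% mitochondrial), doublets kept, no integration, thinning to 500 UMIs or none, and each library left out.

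The departures of libraries with the same number from the mean of their genotype correlated at 0.241, 0.0940 and 0.198 in the lowest, 0.216, 0.180 and 0.160 in the intermediate and 0.143, -0.0274 and 0.172 in the highest step. Numbers were taken to pair libraries only where every correlation was over 0.1, in the intermediate step, with no label behind the pairing.

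The members, the lists and the marker genes were chosen with earlier results of these data known. Genes named were the members, *Smc3*, from each list up to 4 passing genes with the largest change between the highest and lowest steps, and for each member the 5 genes most like it. In the B-cell list 1 gene that the rule names is not reported here. Other genes that were called in the comparisons of genotypes were named after their values were seen.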

Additional observations from a re-analysis of the deposited data

Results flagged for a closer look

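Of 24 sets of member values over 6 libraries, 6 held a library far from the other 5 by Dixon's ratio, where chance gives about 1 set in 20. Of these, 5 concern *Smc3* +/- replicate 2. In the lowest step it had the highest *Irf4*, at 20.5 CPM against 4.14 to 5.20 elsewhere, and the highest *Sdc1*, at 1.87 CPM against 0.446 to 0.706. Its *Irf4* in the intermediate step was 195 CPM against 41.6 to 79.1. Its rise of *Sdc1* was the smallest, at log2 ratios of 6.33 from the lowest to the intermediate and 7.30 from the lowest to the highest step. The median immunoglobulin share of T cell-like cells in that library was 1.28%, and the part of free RNA in these values was not tested. The remaining value was *Sdc1* in the intermediate step of *Smc3* +/- replicate 1, at 253 CPM against 121 to 168 in the other libraries.

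The log2 ratio of *Irf4* from the intermediate to the highest step went up in 3 of 3 WT libraries and down in 3 of 3 *Smc3* +/- libraries, a difference of means of -1.52. The interaction of genotype and step did not pass (edgeR adjusted p 0.108).

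Members were also counted in cells outside the B lineage, above the level that 3 UMIs would give (1.53 CPM in 686 myeloid-like, 2.45 CPM in 533 T cell-like and 8.77 CPM in 60 dendritic cell-like cells, summed over libraries). Myeloid-like cells had 9.70 CPM of *Prdm1*, 28.6 of *Irf4*, 193 of *Xbp1* and 4.60 of *Sdc1*. T cell-like cells had 9.80 CPM of *Irf4*, 79.2 of *Xbp1* and 3.27 of *Sdc1*, the last from 4 UMIs. Dendritic cell-like cells had 123 CPM of *Xbp1*. *Smc3* +/- replicate 2 held 586 of the 686 myeloid-like and 55 of the 60 dendritic cell-like cells, and its myeloid-like cells had a median of 1.13% immunoglobulin UMIs against 0.0779% to 0.101% in the other libraries. Without it 100 myeloid-like cells had 15.8 CPM of *Prdm1*, from 4 UMIs, and 146 of *Xbp1*, while *Irf4* and *Sdc1* had 2 UMIs and 1 UMI, under the level of 3 UMIs. The 391 T cell-like cells of the other libraries had 8.59 CPM of *Irf4* and 67.5 of *Xbp1*, with 2 UMIs of *Sdc1*, and 5 dendritic cell-like cells had 2 UMIs of *Xbp1*. The part of free RNA was not tested.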

How the results depend on the processing

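Between steps, 199 of 204 alternative values for the members kept their direction and side of the threshold. The exceptions lay between the intermediate and highest steps, where *Prdm1* passed without a library block (0.69) and *Irf4* was -0.074 without a filter and -0.14 to 0.76 when 1 library was left out. With limits of 20% and 50%, 959 genes rose to the intermediate step and 271 rose and 434 fell from there. Without a filter, 2770 fell to the intermediate and 3449 to the highest step. The share of higher calls moved under RLE, from 1518 higher and 1451 lower to 1232 and 2105 in the intermediate step, and from 1575 and 1772 to 1377 and 2204 in the highest.

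Between genotypes, 239 of 263 values and counts kept their direction and side of the threshold. In the lowest step *Irf4* was -0.19 without integration and *Xbp1* -0.051 with all B-lineage cells. In the intermediate step *Xbp1* was 0.27 with limits of 20% and 50%, 0.010 with the T cell-like share added and 0.025 with looser filters, and *Smc3* was 0.0080 with limits of 20% and 50%. Leaving out 1 library gave, in the lowest step, -0.12 to 0.33 for *Prdm1*, -0.18 to 1.25 for *Irf4*, -0.046 to 0.091 for *Xbp1*, -0.17 to 0.37 for *Sdc1* and -0.23 to 0.0070 for *Smc3*. It gave -0.039 to 1.12 for *Irf4*, -0.10 to 0.029 for *Xbp1* and -0.28 to 0.13 for *Smc3* in the intermediate and -0.25 to 0.51 for *Sdc1* in the highest step. Called genes numbered 2 in the lowest (*Ifi27*, *Ddah2*) and 3 in the intermediate step (*S100a10*, *Tmem52*, *Itgb7*) by DESeq2, 66 and 16 without a filter in the intermediate and highest steps, and 0 to 3 in the highest step with 1 library left out (*Hmgb2*, *Pclaf* and *Ly6k* without WT replicate 1). With the replicate block 10 genes were called in the intermediate step, and the replicate block changed no member's call.

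Of the added fits, those with early PB-like cells are a description. Leaving out 1 library moved *Prdm1* from early PB-like to intermediate cells between -0.028 and 0.40 with 422 to 1103 genes called, and to the highest step between 0.44 and 0.98, with *Irf4* between 0.11 and 1.11. The interactions with genotype ran, to the intermediate step, from -0.27 to 0.19 for *Prdm1*, -0.48 to 0.13 for *Irf4* and -0.090 to 0.41 for *Sdc1*, with 0 to 8 genes called. To the highest step they ran from -0.26 to 0.013 for *Prdm1*, -2.16 to -1.25 for *Irf4* and -0.22 to 0.42 for *Sdc1*, with 0 to 73 genes and 4 under RLE (*Cd72*, *H2afx*, *Pclaf*, *Grap*). Between the upper steps they ran from -0.37 to 0.29 for *Prdm1*, -0.34 to 0.024 for *Xbp1* and -0.27 to 0.11 for *Sdc1*, with 0 to 31 genes. With all libraries the genes called were *Cd72* and *Pclaf* to the highest step and *Gm9844*, *H2afx*, *Pclaf*, *Ccr10*, *Tnfrsf17* and *Klhl6* between the upper steps.

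Log2 odds ratios of co-detection changed with thinning and with the cell filter, and those of thinned lowest-step cells, at 500 UMIs or with looser filters, are set largely by the 0.5 added to each count and are not read. For *Prdm1* and *Xbp1* they were 2.14 at 500 UMIs, 1.13 unthinned and 1.37 with looser filters in the lowest step, and 0.29 at 500 UMIs and 0.30 unthinned in the upper steps. For *Xbp1* and *Sdc1* they were -0.030 in the upper steps at 500 UMIs and 1.02 in the lowest step unthinned. *Irf4* and *Xbp1* gave 0.22 in the upper steps unthinned and -0.22 in the lowest step with looser filters, and *Prdm1* and *Sdc1* gave -0.22 in the upper steps with looser filters. The immunoglobulin share difference of *Xbp1* was -0.059 percentage points unthinned. The cause of the other changes was not tested. Depth limits *Prdm1* and *Irf4* in the highest step, with 1 to 16 UMIs in 5 libraries, and *Prdm1* and *Sdc1* in the lowest, with 2 to 31.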
